A study of Mus musculus with 9 samples.

Results

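The complement genes C3, C4b, Cfb, Cfd, C1ra, C1s1, C2, C7 and Serping1 were examined in sorted pulmonary smooth muscle cells of the mouse. They were taken by gene symbol, without use of their values, and all 9 were found among the 21049 genes of the table. RNA sequencing had been done on 9 libraries in 3 groups of 3. BSMCs were bronchial smooth muscle cells of Chrm2/Acta2-CreER/R26-GFP mice, the NVSMC-effector line. PASMCs were pulmonary arterial smooth muscle cells of Cspg4/Acta2-CreER/R26-GFP mice, the ASMC-effector line. SmMCll were total pulmonary smooth muscle cells, venous cells included, of tg-Acta2-GFP mice. The labels gave every group tamoxifen by intraperitoneal injection over 3 days, at 0.75 mg per 10 g of body weight from a 20 mg/mL solution in corn oil, and gave no age. Acta2, the smooth muscle actin gene whose promoter marks these lines, is also active in other contractile cells. Each group was a mouse line and a sort of its own, so cell population, line and sort cannot be told apart in any comparison. The labels do not say whether replicates were separate animals. The p-values therefore rest on the spread between these libraries, which may be technical.

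Complement is a cascade of blood and tissue proteins that marks surfaces for clearance and can puncture membranes. In its classical arm C1q binds a target, the proteases C1r and C1s cleave C4 and C2, and the resulting enzyme cleaves C3. In the alternative arm factor D cleaves factor B bound to C3, and both arms lead to the terminal components, from C5 to C9, that build the pore. The liver makes most complement of the blood, while stromal cells of many tissues, fibroblasts and mesothelial cells among them, make C3, C4 and the C1 proteases locally.

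Stretches of 250 bases before the transcription start are given for 4 of the genes, because C3 and C7 differed most between groups among the abundant ones and C1ra and C1s1 are a neighbouring pair whose products act as 1 complex. RefSeq entries (build GRCm38.p6) matched 5 of the 9 genes, the fifth being Cfd, and C4b, Cfb, C2 and Serping1 were without one. Each line runs 5′ to 3′ on the gene's own strand, and capitals mark every match to a motif.
C3, chr17:57228137-57228386, minus strand: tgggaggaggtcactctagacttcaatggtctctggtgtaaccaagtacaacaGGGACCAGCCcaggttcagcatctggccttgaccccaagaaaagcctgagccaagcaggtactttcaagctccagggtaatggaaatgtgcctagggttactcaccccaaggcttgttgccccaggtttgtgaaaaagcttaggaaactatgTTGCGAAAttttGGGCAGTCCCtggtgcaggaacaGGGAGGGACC
C7, chr15:5063774-5064023, minus strand: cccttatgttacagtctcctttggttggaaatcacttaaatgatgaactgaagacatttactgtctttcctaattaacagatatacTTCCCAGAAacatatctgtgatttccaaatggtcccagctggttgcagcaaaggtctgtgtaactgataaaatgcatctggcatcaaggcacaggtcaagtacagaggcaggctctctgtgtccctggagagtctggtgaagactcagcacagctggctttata
C1ra, chr6:124512371-124512620, plus strand: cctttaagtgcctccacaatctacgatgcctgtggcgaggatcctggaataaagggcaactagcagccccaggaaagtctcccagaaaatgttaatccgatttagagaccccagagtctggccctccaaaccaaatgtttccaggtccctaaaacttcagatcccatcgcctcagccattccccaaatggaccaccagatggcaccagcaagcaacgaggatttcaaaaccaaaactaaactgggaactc
C1s1, chr6:124542360-124542609, minus strand: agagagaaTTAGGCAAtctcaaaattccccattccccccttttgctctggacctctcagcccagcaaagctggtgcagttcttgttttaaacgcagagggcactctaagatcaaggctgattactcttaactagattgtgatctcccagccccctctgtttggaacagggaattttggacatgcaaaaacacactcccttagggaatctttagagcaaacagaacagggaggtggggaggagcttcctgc

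The motifs searched on both strands were an interferon response element (ISRE, GAAA and GAAA on the same strand with any 2 bases between), an interferon-gamma activated site (GAS, TTCNNNGAA), an NF-kB motif (GGGA and CC with any 4 bases between) and a C/EBP motif (TTGCNNAA). C3 held 3 NF-kB matches, at 197 to 188, 33 to 24 and 10 to 1 bases before the start, and a C/EBP match at 45 to 38. Of 32851 promoters of the same length, 17.6% held the NF-kB motif and 9.56% the C/EBP motif. C7 held a GAS match at 164 to 156 bases, a motif found in 7.02% of promoters. C1s1 held a C/EBP match at 242 to 235 bases, and an NF-kB match lay 35 to 26 bases before a second annotated start of C1s1. The ISRE motif, found in 2.98% of promoters, matched none of these windows, and C1ra and Cfd held no match to any of the 4 motifs. A match describes the letters of the window and is not evidence of binding.

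Values are normalized read counts per gene unless stated. Depth, read from the spacing of these whole numbers as described with the processing, was 6.387 to 10.02 M reads per library, lowest and most variable in BSMCs, at 6.387 to 9.331 M. The libraries of a group were not copies of each other, with a chi-square per gene of 6.547 to 32.91 over 9 pairs. All 10 smooth muscle markers lay above 10 in each library. Myh11, the smooth muscle myosin heavy chain, had a mean of 10536 in BSMCs, 11958 in PASMCs and 10927 in SmMCll. The sum of the 10 was lowest in SmMCll, as given below with the other markers. Chrm2, the muscarinic receptor gene named in the BSMCs line, was at 155, 223 and 115 in the libraries labelled BSMCs. In those labelled PASMCs it was at 398, 385 and 199, so it was not higher in the bronchial label. With overlap, Chrm2 was called higher in PASMCs than in BSMCs (log2 0.98, SE 0.31, limma adjusted p = 0.0433). It was also called higher in SmMCll than in BSMCs (0.92, SE 0.31, 0.0329). Cspg4, the proteoglycan gene named in the PASMCs line, was at 1296, 1469 and 1778 in BSMCs and at 1958, 1658 and 2393 in PASMCs, with overlap and no call (log2 0.40, SE 0.26, limma adjusted p = 0.268). Every direction drawn from the BSMCs and PASMCs labels below is a direction between libraries so labelled.

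Most of the complement genes stood lowest in BSMCs, intermediate in PASMCs and highest in SmMCll. Of the 8 that passed the filter on low values, 6 were called higher in PASMCs than in BSMCs, 6 higher in SmMCll than in PASMCs and 7 higher in SmMCll than in BSMCs, and 0 were called lower. The first count fell to 3 without PASMCs replicate 1, and the second to 3 on implied reads, the values before library scaling. A call is an adjusted p under 0.05 in limma. Among all 15647 genes tested, 13.2%, 9.39% and 23.7% were called higher in those comparisons, and 22.1%, 16.2% and 41.9% were called in either direction. The 3 comparisons share libraries and do not support each other. The median log2 difference of the 8 genes was 0.82, 0.75 and 2.01, beside 0.05, 0.03 and 0.05 over all genes tested. For C3, C4b, Cfb, C1ra, C2 and C7, all BSMCs libraries lay below all PASMCs libraries and these below all SmMCll libraries. That order without overlap was found for 5.23% of all genes tested. By single comparison, PASMCs lay above BSMCs, SmMCll above PASMCs and SmMCll above BSMCs without overlap for 6, 7 and 7 of the 8 genes, and for 17.6%, 22.6% and 26.6% of all genes tested. Together the 9 genes made up 0.142% ± 0.006 (SD, n = 3) of the normalized reads in BSMCs, 0.214% ± 0.010 in PASMCs and 0.341% ± 0.017 in SmMCll. In sorted bulk samples, fewer cells of a type and less RNA per cell cannot be told apart.

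**Figure D1:**
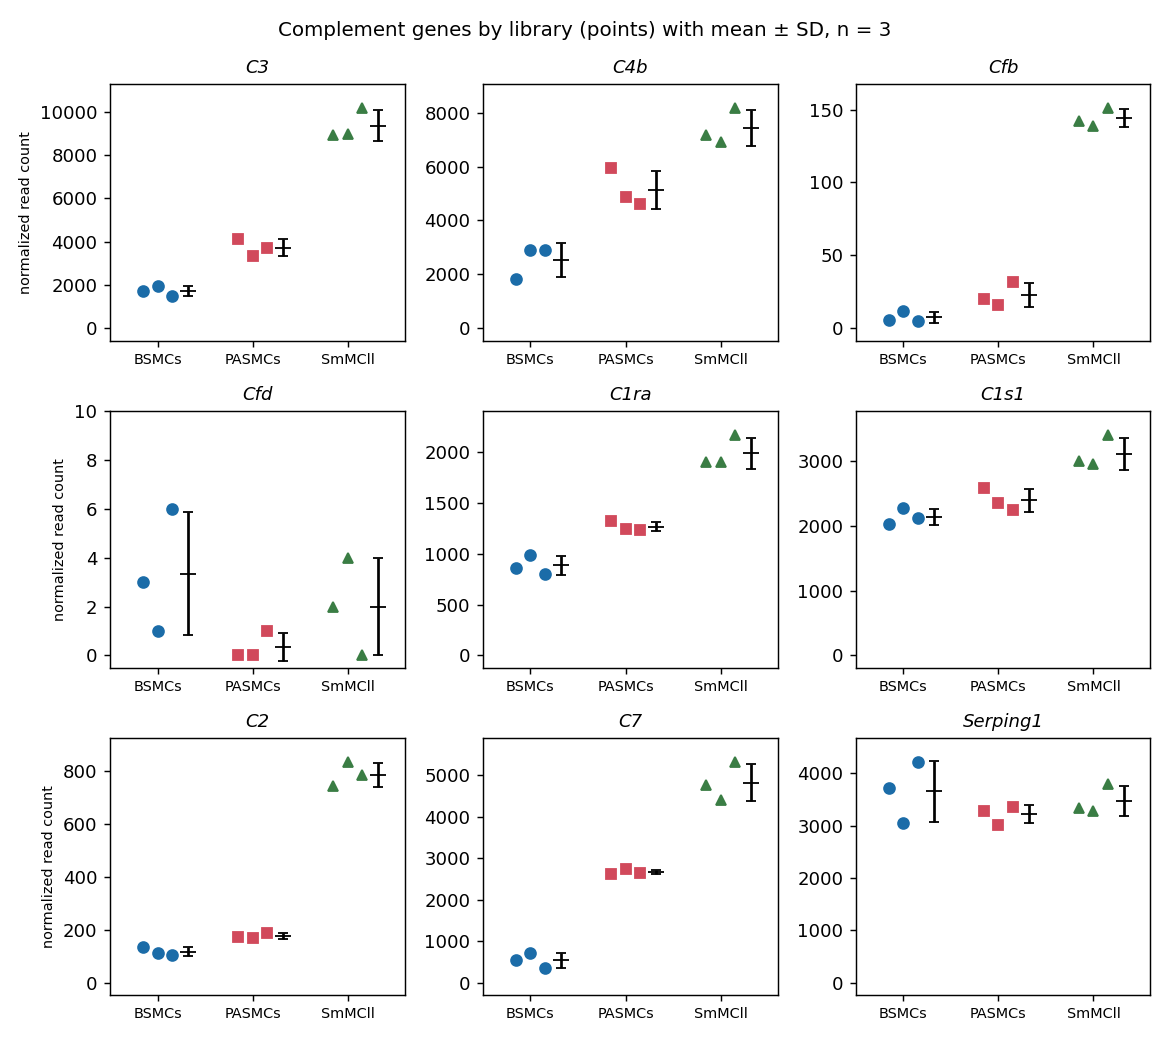
Normalized read count (vertical axis, from a level just below 0) of each of the 9 complement genes in every library, with the mean and SD of 3 libraries per group. For C3 the SmMCll libraries lie between 8919 and 10172, above the PASMCs libraries at 3337 to 4122 and the BSMCs libraries at 1506 to 1951, while for Serping1 the groups overlap.

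C1ra encodes the protease that starts the classical arm once C1q has bound (ENSMUSG00000055172, mm39 chromosome 6, 124489364 to 124500402, plus strand). Its normalized read count was 860, 990 and 802 in BSMCs, 1317, 1245 and 1231 in PASMCs, and 1901, 1897 and 2163 in SmMCll. The groups did not overlap. C1ra was 1.43-fold higher in PASMCs than in BSMCs (log2 difference 0.52, SE 0.12, limma adjusted p = 0.0114) and 2.25-fold higher in SmMCll than in BSMCs (1.17, SE 0.12, 2.96e-05). The step from PASMCs to SmMCll was 0.65 on the log2 scale (SE 0.12, adjusted p = 0.00319). The first of these calls was lost without PASMCs replicate 1 (adjusted p = 0.0571), and the last on implied reads (adjusted p = 0.0796).

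C1s1 encodes the protease that C1r activates and that cleaves C4 and C2 (ENSMUSG00000038521, chromosome 6, 124507304 to 124519318, minus strand). It lies 6901 bases from C1ra, on the opposite strand. Its value was 2028, 2279 and 2116 in BSMCs, 2583, 2348 and 2249 in PASMCs, and 3001, 2949 and 3399 in SmMCll. BSMCs and PASMCs overlapped, and SmMCll stood above both. C1s1 was 1.45-fold higher in SmMCll than in BSMCs (log2 0.54, SE 0.11, limma adjusted p = 0.00223) and 1.30-fold higher than in PASMCs (0.38, SE 0.11, 0.0312), and the difference between PASMCs and BSMCs was not called (0.16, SE 0.11, 0.283). The call against PASMCs was lost in 7 of 21 alternative analyses, among them those without PASMCs replicate 2 or 3 or without SmMCll replicate 1, 2 or 3 (adjusted p = 0.109, 0.13, 0.0735, 0.0533 and 0.143) and on implied reads (0.266). The neighbours thus differed in size: the log2 difference between SmMCll and BSMCs was 1.17 for C1ra and 0.54 for C1s1. Their profiles over the 9 libraries lay at a root mean square distance of 0.264 on the centred log2 scale. That was the smallest of any pair among the 8 genes, but genes with small differences lie close by this measure. C1s1 and Serping1 lay at 0.293.

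C4b encodes C4, which C1s cleaves and which then attaches to the target surface (ENSMUSG00000073418, chromosome 17, 34947354 to 34962856, minus strand). It was at 1813, 2887 and 2917 in BSMCs, 5942, 4865 and 4622 in PASMCs, and 7167, 6923 and 8167 in SmMCll. BSMCs replicate 1 was the lowest library, and no group overlapped another. C4b was 2.06-fold higher in PASMCs than in BSMCs (log2 1.04, SE 0.17, limma adjusted p = 0.00152) and 2.98-fold higher in SmMCll than in BSMCs (1.58, SE 0.17, 4.66e-05). The difference of 0.53 between SmMCll and PASMCs missed the threshold (SE 0.17, adjusted p = 0.0588). It passed in 7 of 21 alternatives, among them those without BSMCs replicate 1, 2 or 3 (adjusted p = 0.00955, 0.0416 and 0.0365).

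C2 encodes the protease that joins C4 in the classical enzyme that cleaves C3 (ENSMUSG00000024371, chromosome 17, 35081580 to 35117241, minus strand). It was far less abundant, at 135, 111 and 104 in BSMCs, 171, 169 and 189 in PASMCs, and 741, 831 and 783 in SmMCll. SmMCll stood apart from both other groups, between which the gap was small. C2 was 4.43-fold higher in SmMCll than in PASMCs (log2 2.15, SE 0.17, limma adjusted p = 1.64e-05) and 6.71-fold higher than in BSMCs (2.75, SE 0.17, 7.16e-07). The difference between PASMCs and BSMCs was 0.60 (SE 0.17, adjusted p = 0.0299), and that call was lost in 11 of 21 alternatives, including each that left out a PASMCs or SmMCll library or BSMCs replicate 3 (adjusted p 0.0513 to 0.0801). Without strand in the library kit, reads of C2 cannot be told from those of Zbtb12, a gene on the other strand within its span, but Zbtb12 was at 5 to 14 in all libraries.

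C3 is the component on which all arms meet, and its cleavage coats the target (ENSMUSG00000024164, chromosome 17, 57510970 to 57535136, minus strand). It was at 1700, 1951 and 1506 in BSMCs, 4122, 3337 and 3707 in PASMCs, and 8919, 8974 and 10172 in SmMCll. The lowest SmMCll library was 2.16 times the highest PASMCs library, and the lowest PASMCs library 1.71 times the highest BSMCs library. C3 was 2.17-fold higher in PASMCs than in BSMCs (log2 1.12, SE 0.12, limma adjusted p = 7.85e-05), 2.52-fold higher in SmMCll than in PASMCs (1.33, SE 0.12, 3.45e-05) and 5.46-fold higher in SmMCll than in BSMCs (2.45, SE 0.12, 1.68e-07). These 3 calls held in all 21 alternatives.

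Cfb encodes factor B, the protease of the alternative arm (ENSMUSG00000090231, chromosome 17, 35075350 to 35081494, minus strand). It was at 6, 12 and 5 in BSMCs, 20, 16 and 32 in PASMCs, and 142, 139 and 151 in SmMCll. The gene was scarce in BSMCs and PASMCs, which were separated by 4 normalized reads, and the lowest SmMCll library was 4.34 times the highest PASMCs library. Cfb was 17.7-fold higher in SmMCll than in BSMCs (log2 4.15, SE 0.41, limma adjusted p = 2.24e-05), the largest difference of the 8 tested genes, and 6.37-fold higher than in PASMCs (2.67, SE 0.41, 0.000996). The difference between PASMCs and BSMCs was 1.48 (SE 0.41, adjusted p = 0.0269). That call was lost in 7 of 21 alternatives, with adjusted p of 0.0652 and 0.0604 without BSMCs replicate 1 or 3, 0.0683 and 0.0838 without PASMCs replicate 1 or 3, 0.051 and 0.0541 without SmMCll replicate 1 or 3, and 0.122 with only the 2 groups in the fit.

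Cfb and C2 arose from a common ancestral gene and lie 85 bases apart on the same strand, with C4b 112493 bases from Cfb. Cfb stood at 4.44% to 10.8% of C2 in BSMCs, 9.47% to 16.9% in PASMCs and 16.7% to 19.3% in SmMCll. This share did not overlap between BSMCs and SmMCll, and PASMCs overlapped with both. C3 lies on the same chromosome, 22393728 bases or more away from these 3 genes.

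Cfd encodes factor D, which activates factor B and is best known as adipsin of fat cells (ENSMUSG00000061780, chromosome 10, 79726687 to 79728489, plus strand). It was at 3, 1 and 6 in BSMCs, 0, 0 and 1 in PASMCs, and 2, 4 and 0 in SmMCll. The highest value stood for 5 implied reads, so Cfd was near absence in all groups, the groups overlapped, and the gene did not enter the test. Of 8 adipocyte markers 5 were in the table, and their sum of 91.4 to 112 CPM (normalized reads per M of the library total) in BSMCs, 112 to 119 in PASMCs and 28.2 to 36.4 in SmMCll came mostly from Plin4. Adipoq, which defines fat cells, was at 0, 1 and 0 in BSMCs, 0, 0 and 0 in PASMCs, and 2, 3 and 6 in SmMCll.

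C7 encodes a terminal component that anchors the growing pore in the membrane (ENSMUSG00000079105, chromosome 15, 5018244 to 5093222, minus strand). It was matched by symbol and identifier, since the description column of the table names a different protein for it. It was at 551, 713 and 349 in BSMCs, 2619, 2729 and 2643 in PASMCs, and 4751, 4404 and 5304 in SmMCll. The BSMCs libraries were the most spread relative to their mean, and the lowest PASMCs library was 3.67 times the highest of them. C7 was 5.16-fold higher in PASMCs than in BSMCs (log2 2.37, SE 0.21, limma adjusted p = 1.93e-05), the largest difference of the 8 tested genes in that comparison, and 9.30-fold higher in SmMCll than in BSMCs (3.22, SE 0.21, 9.02e-07). The step from PASMCs to SmMCll was smaller, at 0.85 (SE 0.21, adjusted p = 0.0145), and was lost without SmMCll replicate 1 or 3 (adjusted p = 0.0501 and 0.0658), on implied reads (0.143) and without the trend and robust options (0.0552).

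Serping1 encodes C1 inhibitor, which shuts off C1r and C1s (ENSMUSG00000023224, chromosome 2, 84595731 to 84605788, minus strand). It was at 3716, 3045 and 4207 in BSMCs, 3287, 3017 and 3349 in PASMCs, and 3338, 3273 and 3790 in SmMCll. The 3 groups overlapped. No comparison was called by limma: the log2 difference was -0.17 between PASMCs and BSMCs (SE 0.13, adjusted p = 0.321), 0.11 between SmMCll and PASMCs (SE 0.13, 0.673) and -0.07 between SmMCll and BSMCs (SE 0.13, 0.685). Without BSMCs replicate 2 the first of these passed the threshold, at -0.30 (adjusted p = 0.0392), and on implied reads its sign turned. The inhibitor was the only gene of the 8 tested without a call in any comparison.

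**Figure D2:**
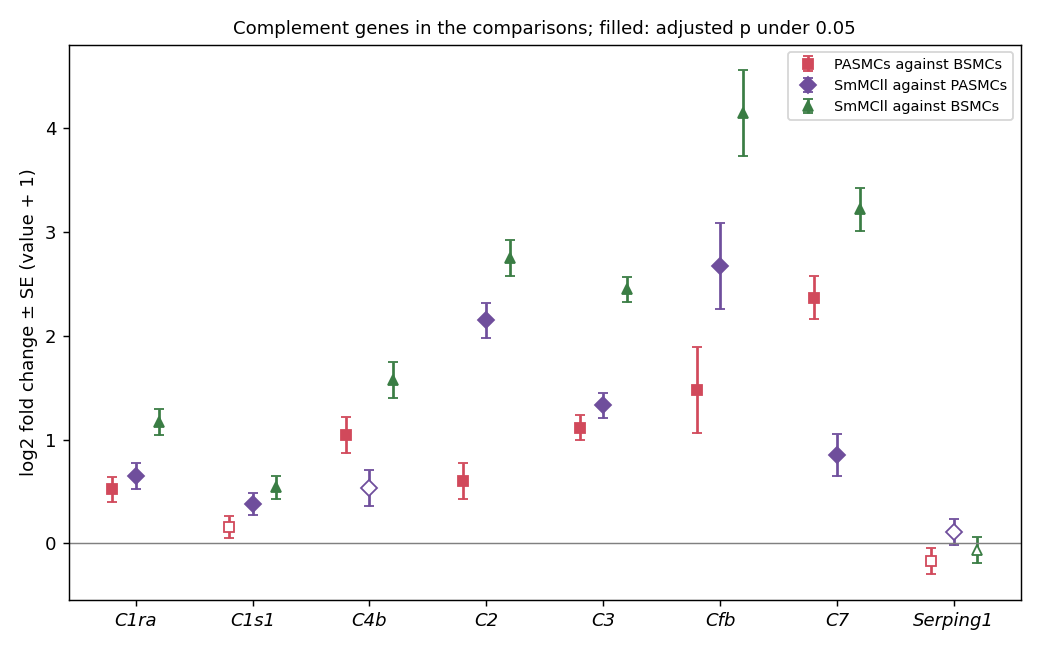
Log2 fold change with its standard error (vertical axis, on the log2(value + 1) scale) of the 8 tested complement genes in the 3 comparisons, with filled symbols for an adjusted p under 0.05. The largest value is that of Cfb between SmMCll and BSMCs, 4.15, and the 3 open symbols of Serping1 lie between -0.17 and 0.11.

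Levels were compared between genes per kilobase of exon, using the mean normalized read count of each group. In BSMCs Serping1 was highest, at 1572 ± 251 (SD, n = 3) per kilobase, followed by C1s1 at 684 ± 40.7, C4b at 446 ± 110, C3 at 334 ± 43.4, C1ra at 297 ± 32.3 and C7 at 201 ± 68.1. C3 and C1ra lay within 1 SD of each other, and C2 at 30.1 ± 4.20, Cfd at 3.62 ± 2.73 and Cfb at 2.71 ± 1.34 came last, Cfd and Cfb within their spread. The inhibitor thus had the most normalized reads per kilobase of the 9 in this group. The high read density of some of these genes, given below, may limit what such ranks say about abundance.
In PASMCs Serping1 was again first, at 1384 ± 75.9, ahead of C7 at 995 ± 21.6 and C4b at 903 ± 123, which were within their spread. C1s1 at 765 ± 54.8 and C3 at 724 ± 76.4 were also within their spread, and C1ra stood at 424 ± 15.5, C2 at 45.5 ± 2.84, Cfb at 8.02 ± 2.95 and Cfd at 0.36 ± 0.63. C7, which stood below C3 and C1ra in BSMCs, here stood above both.
In SmMCll C3 at 1819 ± 138 and C7 at 1801 ± 170 were the highest and did not differ beyond their spread, followed by Serping1 at 1491 ± 121 and C4b at 1303 ± 116. C1s1 at 996 ± 78.7, C1ra at 667 ± 51.1, C2 at 203 ± 11.6, Cfb at 51.0 ± 2.21 and Cfd at 2.17 ± 2.17 came after them. Serping1, first in the other groups, was here below C3 and C7.

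The density of reads was high for several of these genes. Implied reads, the deposited value divided by the recovered library factor, never exceeded 2 per exonic base in any of the 20363 genes with a known exon length, and the densest gene of each library had 1.89 to 1.98. Among genes with more than 1.5 reads per base, the median ratio of variance to mean between replicates was 0.75, below the value of 1 that independent counting gives, against 12.5 at 0.2 to 0.4 reads per base. Whether the counts were capped was not tested, nor whether the ranks per kilobase and the fold changes of the densest genes were affected.
In SmMCll C3 had 1.88 to 1.94 reads per base and C7 1.83 to 1.93. By density C3 ranked 4, 1 and 3 and C7 ranked 1, 7 and 2 among all genes of the 3 SmMCll libraries. In BSMCs the density was only 0.229 to 0.424 for C3 and 0.102 to 0.298 for C7.
Serping1 had 1.42 to 1.47 reads per base in BSMCs, 1.484 to 1.504 in PASMCs and 1.55 to 1.56 in SmMCll. Its implied reads ran from 3289 to 3632 over the 9 libraries, with a variance to mean ratio of 1.09, 0.181 and 0.123 in the 3 groups. An uncalled difference does not show equal expression. C4b, at 1.35 to 1.37 in SmMCll, and C1s1, at 1.03 to 1.05, also exceeded 1 read per base, while C1ra reached 0.706, C2 0.238 and Cfb 0.055.

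**Figure D3:**
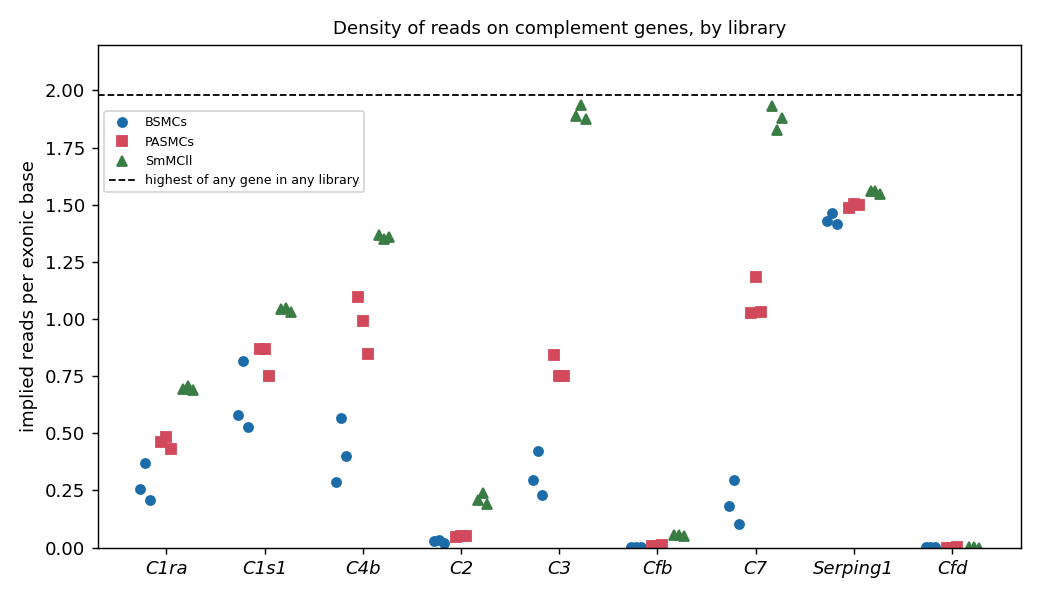
Implied reads per exonic base (vertical axis) of the 9 complement genes in every library, with a dashed line at 1.98, the highest value of any gene in any library. C3 and C7 in SmMCll lie close to the line, Serping1 lies between 1.42 and 1.56 in all groups, and C2, Cfb and Cfd lie near 0.

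Near copies could also affect 3 of the genes. C4a shares 35.2% of the 50-base windows of the C4b transcript, C1rb shares 48.0% of those of C1ra, and C1s2 shares 24.3% of those of C1s1. The copies were listed at 0 to 14, 0 to 5 and 0 to 26. How reads from shared windows were assigned is not given in the sources used here, so the values of these genes are uncertain to that extent.

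The profile of each gene over the 9 libraries was compared with those of 11278 others by the root mean square distance between centred log2 values. The nearest to C3 were Fbn1, the fibrillin-1 gene, at 0.120, and Lamc3, a laminin chain, at 0.123. The nearest to C4b were Plxnb2, a plexin, at 0.110, and Ddr2, a collagen receptor, at 0.121.
C2 was nearest to Apod, apolipoprotein D, at 0.162, and Emilin2, an elastic fibre protein, at 0.177. Cfb was nearest to Ptgfr, a prostaglandin receptor, at 0.333, and C7 to Enpp3, an ectonucleotidase, at 0.243. The distances of Cfb and C7 were larger. The measure is not scaled to the size of a gene's differences, which between SmMCll and BSMCs were largest for Cfb and C7. Distances of different genes therefore do not rank how well their profiles were matched.
C1ra was nearest to Fut11, a fucosyltransferase, at 0.066, and C1s1 to Canx, the chaperone calnexin, at 0.084. Serping1 was nearest to Gsn, the actin-severing gelsolin, at 0.009, followed by Tuba1a, a tubulin, at 0.023. Gsn had 1.66 to 1.84 reads per base and Tuba1a 0.359 to 0.387. Of the pairs among the 8 genes, C1s1 and Serping1 lay at 0.293, C4b and C1ra at 0.299 and C3 and C2 at 0.370.

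Further complement genes were called in both directions. Of 52 further complement genes listed, 40 were in the table and 28 were tested. In PASMCs against BSMCs 6 were called higher, 12 lower and 10 not, in SmMCll against PASMCs 6, 1 and 21, and in SmMCll against BSMCs 8, 13 and 7. Of the 28, 6 reached the filter minimum of 10 in BSMCs libraries only and could enter the test only as lower there. Over all genes tested, 13.2%, 9.39% and 23.7% were called higher and 8.88%, 6.83% and 18.2% lower in those comparisons. No direction of the 28 genes as a set is read from these counts.

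C1qa, C1qb and C1qc, the chains of C1q that start the classical arm and are made mainly by macrophages, were highest in BSMCs and near 0 in the other groups. C1qa was at 798, 336 and 968 in BSMCs, 1, 0 and 0 in PASMCs, and 5, 5 and 3 in SmMCll. C1qb was at 1143, 507 and 1250, then 3, 0 and 0, then 8, 20 and 7, and C1qc at 999, 488 and 1328, then 0, 0 and 2, then 6, 9 and 5. C1qa and C1qc passed the filter on low values only through the BSMCs libraries, so their values are given as a description. The small difference between SmMCll and PASMCs was called higher by limma for the 3 chains, and these calls are part of the counts above. On the PASMCs and SmMCll libraries alone, however, none of the 3 chains would have passed the filter. No direction between SmMCll and PASMCs is therefore read from them.
The sum of the myeloid markers was also highest in BSMCs, at 1082 to 1594 CPM. It was 282 to 299 in PASMCs and 248 to 306 in SmMCll. Cd74, the invariant chain of antigen-presenting cells, was the most abundant of these markers in BSMCs. It was at 2179 to 3073 in BSMCs, 646 to 809 in PASMCs and 1740 to 1923 in SmMCll. Lyz2, a lysozyme gene and the most abundant of these markers in PASMCs, was at 1843, 1670 and 1689 there. In BSMCs Lyz2 was at 2465, 1939 and 2798, and in SmMCll at 333, 485 and 395. Ptprc, Adgre1, Mrc1 and Marco were at 0 in all PASMCs libraries. In PASMCs and SmMCll the myeloid sum thus came mostly from Lyz2 and Cd74. No other marker of the list had a mean above 93.0 in these groups, that of Laptm5 in SmMCll. BSMCs replicate 2 had the lowest C1q and myeloid sums of its group and was the deepest of the 3. In normalized reads it also had the highest C3, C7, C1ra, C1s1 and Cfb of its group, but not the highest C2 or C4b, and the lowest Serping1 and fibroblast sum. On implied reads, before library scaling, its Serping1 was instead the highest of the group, at 3407 against 3325 and 3289. C2 and C4b were then highest in it as well. The part of these cells and of depth in the results was not tested.

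In the lectin arm, Fcna, a ficolin made by macrophages, was at 101, 93 and 118 in BSMCs, 0, 0 and 0 in PASMCs, and 1, 9 and 1 in SmMCll. It too passed the filter only through BSMCs. Colec12, a scavenger receptor of the collectin family, was higher in PASMCs (log2 0.83, SE 0.14, limma adjusted p = 0.00194) and in SmMCll (0.96, SE 0.14, 0.000361) than in BSMCs. Colec11, a soluble collectin, was lower in PASMCs than in BSMCs (-0.84, SE 0.21, 0.0156) and than in SmMCll, where the difference was 0.91 (SE 0.21, 0.0115). Masp1, a protease of the lectin arm, was higher in SmMCll than in BSMCs (2.90, SE 0.68, 0.00599), with a mean of 218 ± 65.5 (SD, n = 3) against 40.3 ± 32.3. Lectin genes thus moved in both directions.

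In the alternative arm, Cfp, the stabilizer properdin, was at 367, 233 and 466 in BSMCs, 7, 7 and 14 in PASMCs, and 5, 7 and 9 in SmMCll. Outside BSMCs only PASMCs replicate 3 reached the filter minimum of 10, so Cfp too passed the filter through BSMCs. Its values are given as a description, and they were highest in BSMCs, where C3 and Cfb were lowest. In the terminal arm, Hc, the mouse gene for C5, was at 7, 20 and 3 in BSMCs, 234, 159 and 135 in PASMCs, and 6, 14 and 9 in SmMCll. Hc was higher in PASMCs than in BSMCs (log2 4.30, SE 0.58, adjusted p = 0.000381) and lower in SmMCll than in PASMCs (-4.08, SE 0.58, 0.000603), so it stood out in PASMCs, where C7 was intermediate. C6, the terminal component that acts just before C7, was at 4, 14 and 5, then 34, 22 and 41, then 4, 16 and 9, and was called only in PASMCs against BSMCs (2.08, SE 0.61, 0.0327).

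Among the soluble regulators, Vtn, vitronectin, which binds the nascent pore, was at 314, 298 and 723 in BSMCs, 64, 95 and 138 in PASMCs, and 125, 178 and 106 in SmMCll. Vtn was lower in PASMCs (log2 -2.10, SE 0.37, limma adjusted p = 0.00234) and in SmMCll (-1.61, SE 0.37, 0.00575) than in BSMCs. Clu, clusterin, was lower in SmMCll than in BSMCs (-0.33, SE 0.13, 0.0492), with overlap between the groups. On implied reads 1 of the 4 soluble regulators tested was called lower in that comparison, against 2 on the deposited values.

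On the membrane, Cd55, which takes apart the enzymes that cleave C3, was at 292, 204 and 185 in BSMCs, 466, 430 and 549 in PASMCs, and 1213, 1449 and 1233 in SmMCll. It had the order of C3 without overlap and was called in each comparison, at log2 1.10 between PASMCs and BSMCs (SE 0.19, limma adjusted p = 0.00177), 1.43 between SmMCll and PASMCs (SE 0.19, 0.000373) and 2.53 between SmMCll and BSMCs (SE 0.19, 2.62e-06). Susd4 and Cd46, both scarce with means of at most 22.7, were called higher in SmMCll than in BSMCs (2.15, SE 0.57, 0.0110 and 2.497, SE 0.80, 0.0265). Cd59a, which blocks the pore, was lower in SmMCll than in BSMCs (-0.51, SE 0.14, 0.0112). On implied reads 2 of the 7 membrane regulators tested were called higher and 0 lower in SmMCll than in BSMCs, against 3 and 1 on the deposited values.

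Of 6 receptor genes tested, 3 reached the filter minimum of 10 in BSMCs libraries only, so no count of calls is read from the list. C5ar1, the receptor of the C5a fragment, was at 434, 247 and 446 in BSMCs, 0, 0 and 0 in PASMCs, and 0, 3 and 0 in SmMCll. Itgb2, the chain shared by the leukocyte integrins that bind cleaved C3, was at 609, 649 and 693, then 14, 9 and 5, then 21, 12 and 11. Cd93, a surface protein of endothelial and myeloid cells, was higher in SmMCll than in PASMCs (log2 1.53, SE 0.25, limma adjusted p = 0.00147). C5ar1 was among the 3 that passed the filter only through BSMCs, so its values are given as a description. Itgb2 was most abundant in the BSMCs libraries, where C3 was lowest and the myeloid sum highest.

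**Figure D4:**
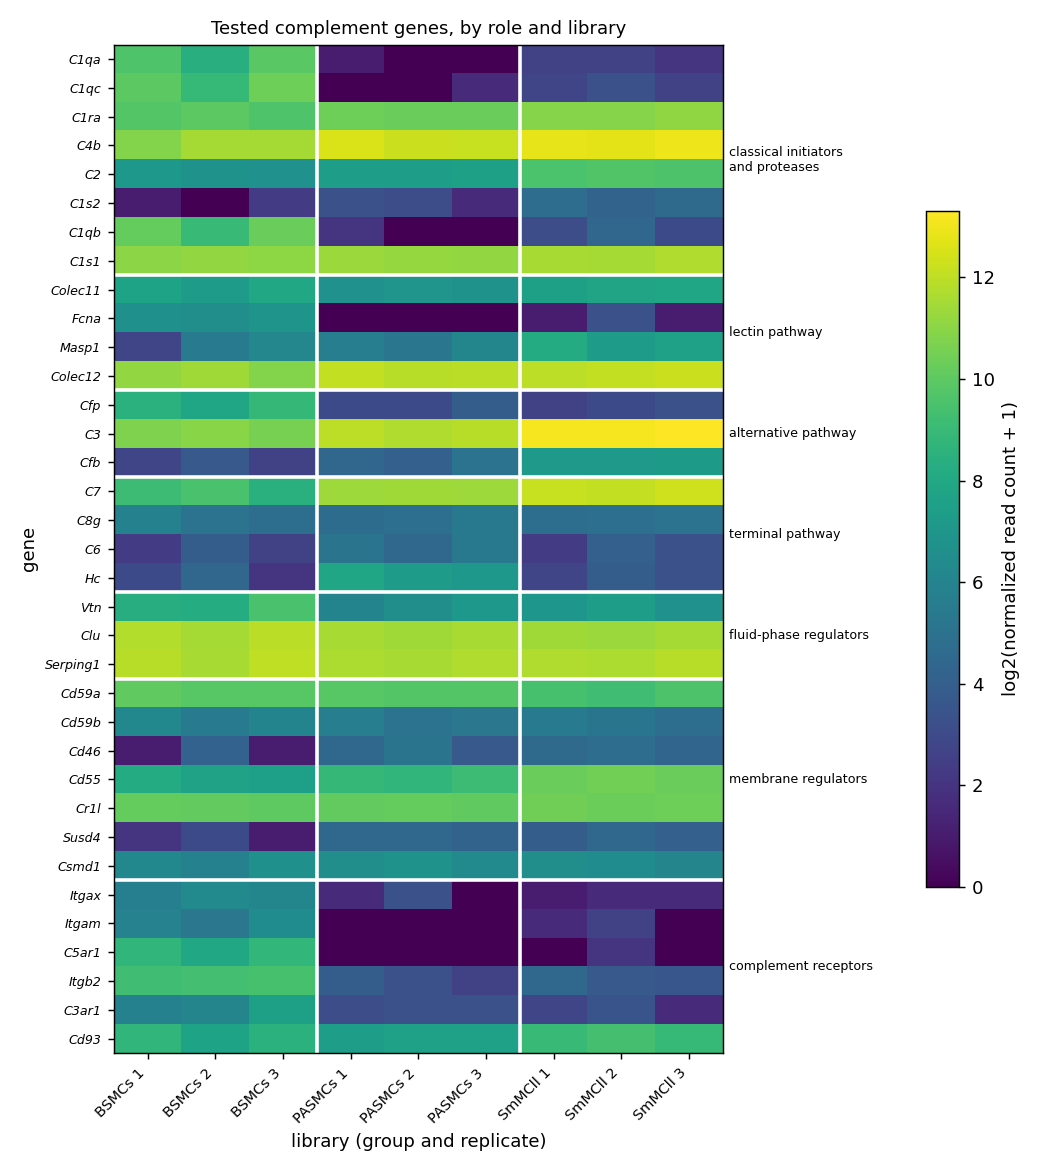
Log2(normalized read count + 1), as colour, of tested complement genes, in rows ordered by role, and of the 9 libraries in columns. C1qa, C1qb, C1qc, Cfp, C5ar1 and Itgb2 are bright in the 3 BSMCs columns, with C5ar1 at 247 to 446 there and 0 to 3 elsewhere, and C3, C7 and Cfb grow brighter from left to right.

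Markers of cell types that make complement elsewhere also differed between the groups. The 16 fibroblast markers summed to 5214 to 6214 CPM in BSMCs, 6269 to 7089 in PASMCs and 8301 to 9167 in SmMCll, the same order as C3, and 9, 6 and 8 of them were called higher in the 3 comparisons, with 0, 1 and 0 lower. Over all genes tested 13.2%, 9.39% and 23.7% were called higher in those comparisons. None of the 16 fibroblast markers was at 0, and Col3a1, their most abundant gene, had means of 9177, 8998 and 9810. The 8 mesothelial markers summed to 84.3 to 199 CPM in BSMCs, 30.6 to 52.0 in PASMCs and 754 to 929 in SmMCll. All 8 were called higher in SmMCll than in PASMCs and 7 higher than in BSMCs, while 6 were lower in PASMCs than in BSMCs, and 3 on implied reads. Mesothelial markers were thus highest in SmMCll, where C2 and Cfb stood apart, but were lower in PASMCs than in BSMCs, unlike the complement genes. Muc16 was at 0 in all PASMCs libraries, and Upk3b, a mesothelial gene, had a mean of 1955 in SmMCll. The smooth muscle sum was 4952 to 5708 in BSMCs, 4659 to 5254 in PASMCs and 3713 to 4189 in SmMCll. Some of its genes were dense too. Acta2 had 1.61 to 1.67 implied reads per base in BSMCs, 1.61 to 1.62 in PASMCs and 1.34 to 1.52 in SmMCll. Myh11 had 1.08 to 1.68, 1.67 to 1.73 and 1.47 to 1.545. Mean implied reads of Acta2 were 3607, 3556 and 3159, beside normalized means of 3948, 3290 and 3017. Whether density affected the sum was not tested. Of the 10 smooth muscle markers, 1, 0 and 0 were called higher in the 3 comparisons and 0, 3 and 6 lower. Over all genes tested 8.88%, 6.83% and 18.2% were called lower. Between SmMCll and BSMCs the number called lower was 2 on implied reads and 9 at a common column total.
The lymphocyte sum was 301 to 531, 0.112 to 0.701 and 270 to 308, with 5 of 8 genes at 0 in all PASMCs libraries. In SmMCll it came mostly from the immunoglobulin genes Igha and Jchain, with means of 1560 and 1018. Cd3d, Cd3e, Cd79a, Cd79b, Ms4a1 and Nkg7 were at 0 to 14 in SmMCll and at 37 to 231 in BSMCs. The alveolar type 2 sum was 383 to 583, 790 to 863 and 232 to 244, the airway secretory sum 261 to 364, 324 to 488 and 234 to 392, the endothelial sum 811 to 880, 681 to 864 and 1131 to 1415, and the pericyte sum 1169 to 1434, 1759 to 1896 and 1588 to 1682. None of these 5 sums rose over the 3 groups without overlap. The part of other cell types in the differences of the complement genes was not tested.

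**Figure D5:**
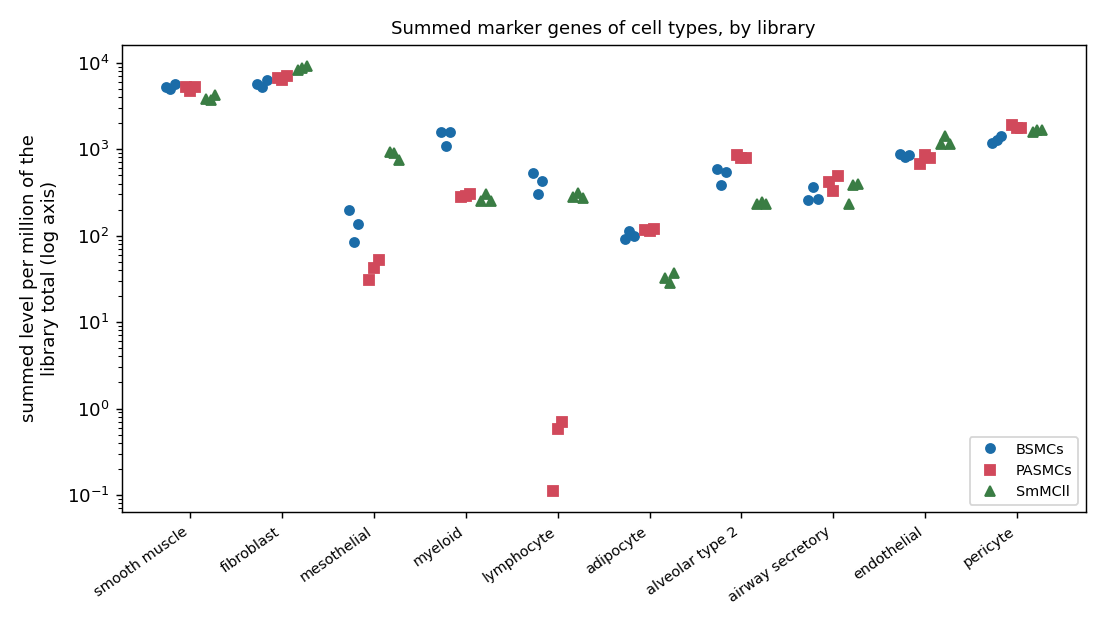
Summed normalized reads of 10 marker lists per M (CPM) of the library total (vertical axis, log scale) in each of the 9 libraries. The fibroblast sum is highest in SmMCll, at 8301 to 9167, the mesothelial sum is 754 to 929 in SmMCll against 199 or less elsewhere, and the myeloid sum is highest in BSMCs.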

How the data were processed

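Libraries were made from at most 10 ng of total RNA with the SMART-Seq v4 kit, per the labels, a kit that marks neither strand nor molecule. The submitters' processing notes name the build mm39 and, in no order, DESeq2 1.36.0, STAR 2.7.11a, featureCounts 2.0.4, Trimmomatic 0.39 and Picard 3.1.1. The authors deposited 1 table of whole numbers, recorded here with the unit score. Whole numbers that never occur in some columns, or occur too often in others, showed that these are normalized read counts after rounding, so edgeR was not used. The spacing gave each library's factor, by which values were divided to give implied reads. Genes at 10 or more in at least 3 libraries (15647) were tested on log2(value + 1), a scale that understates the change of low genes, in 1 fit of 3 group means over the 9 libraries (limma 3.58.1, trend and robust, R 4.3.3). The Benjamini-Hochberg adjustment covered every tested gene of a comparison, and the method was tested on simulated data. Exon lengths came from GENCODE vM21 (GRCm38) by gene identifier, for 96.74% of genes, while coordinates of genes are those of the table. Tables and plots used Python 3.11.15, numpy 2.4.6, pandas 2.3.3 and matplotlib 3.10.9.

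The complement genes, the lists and the tests were chosen with earlier results of these data known. Further genes named were, per complement list, up to 2 called in each direction of a comparison by size of change, and per tested gene the 2 nearest profiles, of which some are given. Single values carry no confidence interval, and without molecular identifiers counting error alone understates the noise. Alternatives were other pseudocounts, filters, scalings and fits, a replicate block, each library left out, and implied reads, the last chosen after seeing the data. The result of one further gene is not reported here.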

Additional observations from a re-analysis of the deposited data

How the results depend on the processing

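Of 24 differences (8 genes in 3 comparisons), 15 kept call and direction in all 21 alternatives, and all 7 calls between SmMCll and BSMCs were among them. Only Serping1 changed sign: between PASMCs and BSMCs to 0.059 on implied reads, and between SmMCll and BSMCs to 0.12 on implied reads and 0.040 without BSMCs replicate 3, within -0.19 to 0.040 with 1 library left out. These had no call. Of the 8 genes, the number called was 3 to 7 between PASMCs and BSMCs when 1 library was left out, with 3 without PASMCs replicate 1, and 4 to 7 between SmMCll and PASMCs, where implied reads gave 3.

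Over all genes, 3451 were called between PASMCs and BSMCs, 1926 with only these groups in the fit and 1724 to 6698 with 1 library left out, with 1724 without PASMCs replicate 1, 1999 without PASMCs replicate 2, 2201 without BSMCs replicate 1 and 6698 without BSMCs replicate 2. Between SmMCll and PASMCs 2539 were called, 4345 with only these groups, 5082 with array weights and 1679 (without SmMCll replicate 2) to 3219 with 1 library left out. Between SmMCll and BSMCs 6553 were called, and 4373 to 8370 with 1 library left out. The causes were not tested. Left-out fits kept the same 15647 genes. The share of calls that were higher between PASMCs and BSMCs was 59.8% as deposited, 46.2% at a common column total, 49.3% after quantile and 50% after loess normalization, and 73.2% on implied reads. Between SmMCll and BSMCs it was 56.6%, 42.8%, 44.3%, 49.8% and 68.8%. The median of all genes moved to 0.27 and 0.23 on implied reads and to -0.11 at a common total between SmMCll and BSMCs, and the medians of the 8 complement genes exceeded it under each scaling.

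No pairing by replicate number was seen in the deviations of libraries from their group means. Same-numbered libraries correlated at -0.124 to 0.136, with 1 of 9 pairs over 0.1. Differently numbered libraries ranged as widely, from -0.1895 to 0.1396, so this check cannot exclude a pairing. With a replicate block 3287, 2286 and 6350 genes were called, and 5, 6 and 7 of the 8 complement genes, C2 between PASMCs and BSMCs being lost (adjusted p = 0.0537). Depth limits Cfd, at no more than 5 implied reads, and Cfb in BSMCs, at 4 to 13.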
